A study of Mus musculus with 3 samples.

Results

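Neuron-like filament genes and catecholamine enzyme genes were followed across 3 libraries of epithelial cells sorted from the upper small intestine of mice. The 8 genes are the intermediate filament genes Nefl, Nefm, Nefh, Ina, Prph and Vim and the enzyme genes Th and Dbh, out of 24003 genes with a value in the files. They were chosen by their levels in these same libraries, which were known when the list was drawn up, so the levels and ratios given for them are descriptions and are not tests. The libraries were GIP-GFP, from GIP-expressing cells of a GFP reporter mouse, Ngn3-TOMATO, from tomato-positive cells of male Ngn3-Cre mice crossed to a ROSA26 tomato indicator that is switched on by removal of a stop cassette, and Ngn3-negative, from the tomato-negative cells of that cross. The Ngn3-TOMATO cells therefore include any progeny of a progenitor that expressed Neurogenin 3, and the tomato sorts took cells that did not stain for CD45, a blood cell marker. No such stain is stated for the GIP-GFP sort, and the construct that drives GFP and the ages of the mice are not given in the sources used here. All groups were of the C57BL/6 strain, and each library was made from RNA of several samples pooled in equal amounts, so each group has 1 library and no difference has a replicate check.

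Intermediate filaments are rope-like polymers of the cytoskeleton. Epithelial cells build them from keratins and mesenchymal cells from vimentin. Neurons build them from the neurofilament chains of light, medium and heavy size together with alpha-internexin and, in peripheral neurons, peripherin. Catecholamines are made from tyrosine in a short chain of reactions. Tyrosine hydroxylase makes L-DOPA in the rate-limiting step, DOPA decarboxylase turns it into dopamine, and dopamine beta-hydroxylase turns dopamine into noradrenaline inside vesicles. Enteroendocrine cells are epithelial cells that share their secretory machinery with neurons, and some of them make the amine serotonin.

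The label of neuron-like filaments held for part of the list. The neurofilament light and medium chains, vimentin and tyrosine hydroxylase were each above 90 scaled FPKM in GIP-GFP. Scaled FPKM is the deposited value per transcript length divided by 1 common number. Ina and Prph were low and were seen mainly in Ngn3-TOMATO, while Nefh and Dbh were listed at 0 in all 3 libraries. Of the 8 genes, 6 reached 1 scaled FPKM in at least 1 library and 4 reached 10. Vimentin is not a neuronal filament in the adult, so the neuron-like filaments with more than a trace of transcript in GIP-GFP were Nefl and Nefm.

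**Figure D1:**
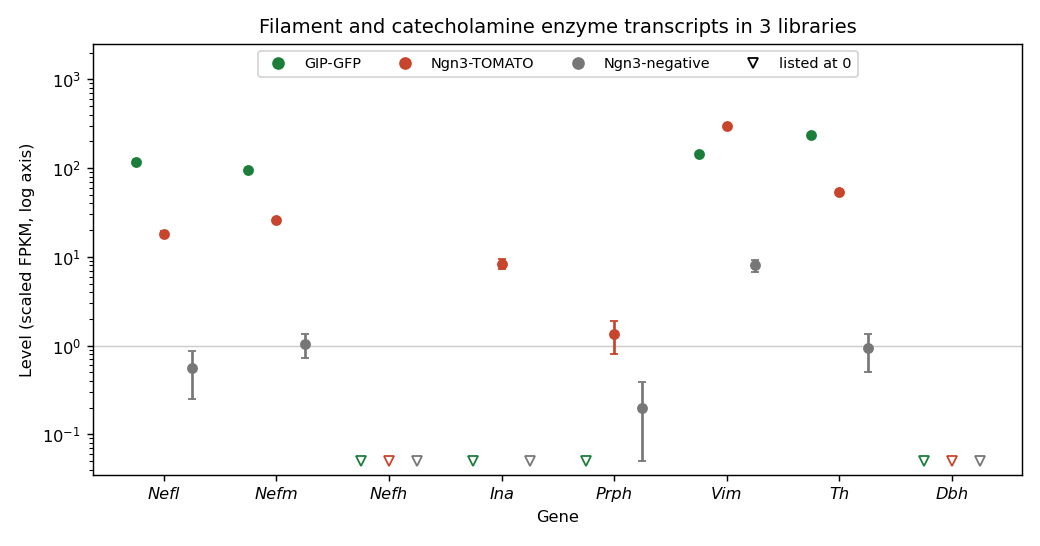
Level of each of the 8 genes (x axis) in scaled FPKM on a log axis, with GIP-GFP in green, Ngn3-TOMATO in red and Ngn3-negative in grey. Bars are 95% counting intervals, cut at 0.05 where the lower limit is under it, and open triangles mark genes listed at 0. Nefl, Nefm and Th are highest in GIP-GFP, and Vim is highest in Ngn3-TOMATO.

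The sorts were read against their own genes. Gip stood at 242018 scaled FPKM in GIP-GFP cells, 28088 in Ngn3-TOMATO cells and 731.4 in Ngn3-negative cells, and took 23.3% of the GIP-GFP total. Neurog3, the gene of Neurogenin 3, was at 4.48 in GIP-GFP, 24.1 in Ngn3-TOMATO cells and 13.9 in Ngn3-negative cells, so it was present in the tomato-negative library at a level above that of GIP-GFP. Summed over transcripts, coverage came to 592.1, 1380 and 1030 Mb for the same libraries. All 7 enteroendocrine markers (Chga, Chgb, Cpe, Scg2, Neurod1, Pax6 and Rfx6) were at least 2-fold above Ngn3-negative in both reporter libraries, between 2.57-fold (Chga) and 178-fold (Cpe) in GIP-GFP and between 27.2-fold (Rfx6) and 70.2-fold (Chga) in Ngn3-TOMATO. Here and below a fold is a ratio after 1 scaled FPKM was added to each value, which understates the ratio of low genes, and genes under 1 scaled FPKM in both libraries of a pair were left out. In pooled material of this kind, fewer cells that carry a transcript and less transcript per cell cannot be told apart.

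Against Ngn3-negative, 4 of the 4 members that could be compared were at least 2-fold higher in GIP-GFP, where 21.0% of 13418 genes were. None was lower, where 13.8% of genes were. In Ngn3-TOMATO 5 of 6 were at least 2-fold higher, where 19.1% of 13380 genes were, and none lower, where 9.96% were. The 5 include Ina, which was listed at 0 in Ngn3-negative and passes only by its level and the added 1. Between the reporter libraries, Th, Nefl and Nefm were at least 2-fold higher in GIP-GFP, where 8.03% of 13670 genes were, and 3 members at least 2-fold lower, where 8.70% were. The 3 are Vim and, by the added 1 alone, Ina and Prph, both listed at 0 in GIP-GFP. Since the members were chosen with these ratios known, their share beside that of all genes is not evidence about them. Both reporter libraries are set against the same Ngn3-negative library, so the first 2 comparisons are not independent of each other.

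**Figure D2:**
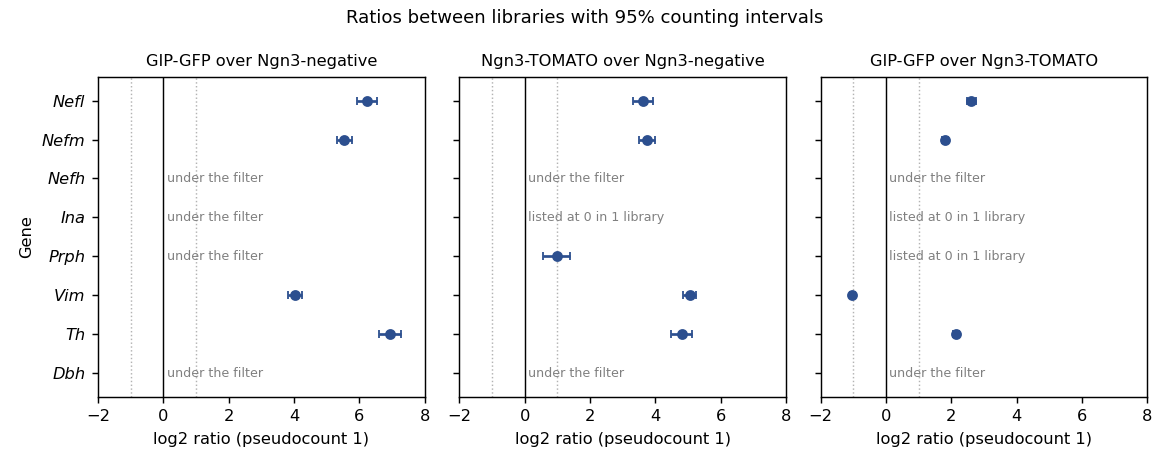
Log2 ratio of each gene (rows) in the 3 pairs of libraries (panels), after 1 scaled FPKM was added to each value. Bars are 95% counting intervals, dotted lines mark 2-fold, and no point is drawn where a gene is listed at 0 in 1 library of the pair or is under the filter. Th, Nefl and Nefm lie right of the 2-fold line between the reporter libraries, and Vim lies left of it.

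Th, the gene of the rate-limiting enzyme of catecholamine synthesis, was the most abundant member in GIP-GFP. Its transcript uc009koi.1 (mm10, chromosome 7, 142892776 to 142899966, minus strand) stood at 237.3 scaled FPKM in GIP-GFP cells, 53.1 in Ngn3-TOMATO cells and 0.935 in Ngn3-negative cells. The order of the 3 libraries is clear of counting error, and the Ngn3-negative value rests on about 19 fragments, against about 2423 in GIP-GFP and 1383 in Ngn3-TOMATO. The log2 ratio of GIP-GFP to Ngn3-negative was 6.94 (95% counting interval 6.62 to 7.27), which is rank 15 of the 13418 genes compared. Ngn3-TOMATO stood 4.80 log2 units above Ngn3-negative (4.48 to 5.13), and GIP-GFP stood 2.14 above Ngn3-TOMATO (2.04 to 2.24). By level Th ranked 520 among all genes in GIP-GFP, 3231 in Ngn3-TOMATO cells and 12009 in Ngn3-negative cells.

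Dbh, whose enzyme would carry the chain on to noradrenaline, was listed at 0 in each of the 3 libraries (uc008ixe.1, chromosome 2, 27165507 to 27183204, plus strand). A level of 1 scaled FPKM of a transcript of this length would have given about 13.9, 34.0 and 25.4 fragments in these libraries in that order. A listed 0 can also be an estimate that failed, and the status of Dbh was OK in each library. Whether these zeros are failed estimates was not tested.

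The bases upstream of Th and Ina are shown because these members differ in pattern: Th was highest in GIP-GFP, and Ina was listed above 0 in Ngn3-TOMATO alone. Each line gives the 250 bases before the RefSeq start on GRCm38.p6, 5′ to 3′ on the strand of the gene, and capitals mark exact matches to the motifs searched, on either strand.
Th upstream, chr7:142899996-142900245, minus strand: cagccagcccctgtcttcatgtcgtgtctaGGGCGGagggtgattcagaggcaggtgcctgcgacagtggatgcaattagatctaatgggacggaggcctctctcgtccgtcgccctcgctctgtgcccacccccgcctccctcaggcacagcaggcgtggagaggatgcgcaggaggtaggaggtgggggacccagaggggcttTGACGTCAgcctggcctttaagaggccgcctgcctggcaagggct
Ina upstream, chr19:47014431-47014680, plus strand: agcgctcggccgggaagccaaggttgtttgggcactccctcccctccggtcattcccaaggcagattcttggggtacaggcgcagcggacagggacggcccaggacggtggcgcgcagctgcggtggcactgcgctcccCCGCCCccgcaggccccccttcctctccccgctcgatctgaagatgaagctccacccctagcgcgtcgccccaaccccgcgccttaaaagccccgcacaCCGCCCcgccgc
The motifs searched on both strands were the cyclic AMP response element, spelled TGACGTCA, the TATA box, spelled TATAAA, the GC box, spelled GGGCGG, an E-box, spelled CAGATG, and the AP-1 site, spelled TGAGTCA. The Th window held TGACGTCA at 45 to 38 bases before the start, a match that 1.55% of 32851 windows of this length have, and GGGCGG at 220 to 215 bases before it. The Ina window held GGGCGG at 2 places, and 32.7% of all windows hold this motif at least once. Neither window held TATAAA (12.4% of windows), CAGATG (14.4%) or TGAGTCA (4.46%). These are matches of letters in the reference and not measured binding. Of the 8 members, 5 matched an entry in the RefSeq promoter table.

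Nefl and Nefm encode the light and medium neurofilament chains, which copolymerise. Their transcripts lie on opposite strands of chromosome 14, 31.8 kb apart (Nefl, uc007uln.1, 68083884 to 68087737, plus strand, and Nefm, uc007ulo.1, 68119545 to 68125004, minus strand). Nefl was at 116.1 scaled FPKM in GIP-GFP cells, 18.2 in Ngn3-TOMATO cells and 0.559 in Ngn3-negative cells. Nefm was at 94.3 in GIP-GFP, 26.3 in Ngn3-TOMATO cells and 1.04 in Ngn3-negative cells. Both genes ran in the same order, GIP-GFP above Ngn3-TOMATO above Ngn3-negative, with gaps beyond counting error. The annotation also holds an Nefm transcript that runs antisense across Nefl, and whether the reads kept their strand is not stated.

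The log2 ratio of GIP-GFP to Ngn3-negative was 6.23 (5.93 to 6.53) for Nefl and 5.54 (5.31 to 5.78) for Nefm. Ngn3-TOMATO to Ngn3-negative gave 3.62 (3.31 to 3.93) for Nefl and 3.74 (3.50 to 3.98) for Nefm. The intervals of the 2 genes overlapped in Ngn3-TOMATO, whereas in GIP-GFP that of Nefl lay above that of Nefm. GIP-GFP to Ngn3-TOMATO gave 2.61 (2.47 to 2.75) for Nefl and 1.81 (1.71 to 1.90) for Nefm. Since FPKM is per length, the level of Nefl can be set against that of Nefm within a library. It was 1.23 times that of Nefm in GIP-GFP (1.15 to 1.32), 0.692 times in Ngn3-TOMATO (0.625 to 0.766) and 0.537 times in Ngn3-negative (0.284 to 1.01, from about 13 and 41 fragments). By these models the Nefl transcript was therefore the more abundant in GIP-GFP and the less abundant in Ngn3-TOMATO. The models are 2001 bases long for Nefl and 3230 for Nefm, which was matched by overlap without a shared end. The intervals cover counting error and not an error in these lengths.

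Nefh, the heavy neurofilament chain that completes the axonal polymer, was listed at 0 in all 3 libraries (uc007hvm.1, chromosome 11, 4938756 to 4948064, minus strand). A level of 1 scaled FPKM would have given about 25.7 fragments in GIP-GFP, 61.5 in Ngn3-TOMATO cells and 46.0 in Ngn3-negative cells. As for Dbh, whether these zeros are failed estimates was not tested.

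Ina, which encodes alpha-internexin, was at 8.34 scaled FPKM in Ngn3-TOMATO (7.29 to 9.39, about 252 fragments) and was listed at 0 in GIP-GFP and in Ngn3-negative (uc008huk.1, chromosome 19, 47014698 to 47024346, plus strand). At the Ngn3-TOMATO level its transcript would have given about 115 fragments in GIP-GFP and 210 in Ngn3-negative. The first 492 bases of the Ina locus lie inside the longest model of the neighbouring nucleotidase gene Nt5c2, which was itself listed at 0 in each library. Nt5c2 as a whole was at 34.8 scaled FPKM in GIP-GFP cells, 19.7 in Ngn3-TOMATO cells and 13.5 in Ngn3-negative cells. Whether the listed zeros of Ina are failed estimates was not tested, and no fold is given against them.

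Prph, which encodes peripherin, was near the limit of detection. Its 3 transcript models on chromosome 15 (99055174 to 99058978, plus strand) summed to 1.36 scaled FPKM in Ngn3-TOMATO cells (0.809 to 1.91) and 0.196 in Ngn3-negative cells (0 to 0.392, about 4 fragments), and were listed at 0 in GIP-GFP. Ngn3-TOMATO over Ngn3-negative gave a log2 ratio of 0.98 (0.57 to 1.39), just under 2-fold, and came to 2.30 with a pseudocount of 0.1. Whether Prph reaches 2-fold depends on this choice.

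Vim, the vimentin gene, was the member with the highest level in Ngn3-TOMATO. It stood at 145.3 scaled FPKM in GIP-GFP cells, 297.7 in Ngn3-TOMATO cells and 8.01 in Ngn3-negative cells (uc008ikb.2, chromosome 2, 13574311 to 13582826, plus strand). Unlike Th, Nefl and Nefm, it was lower in GIP-GFP than in Ngn3-TOMATO, with a log2 ratio of -1.03 (-1.11 to -0.95) that came to -0.998, just under 2-fold, with equal totals. The log2 ratio to Ngn3-negative was 4.02 (3.81 to 4.23) in GIP-GFP and 5.05 (4.85 to 5.25) in Ngn3-TOMATO.

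Vim is expressed strongly by fibroblasts, endothelium and leukocytes, so the markers of those cells were read beside it. None of the 9 fibroblast and stroma markers reached 1 scaled FPKM in GIP-GFP and 1 did in each other library, with summed levels of 1.52 in GIP-GFP, 2.59 in Ngn3-TOMATO cells and 2.71 in Ngn3-negative cells. Col1a1 was at 0 in GIP-GFP, Pdgfra in both reporter libraries and Lum in all 3. The 5 smooth muscle markers summed to 0.317, 0.540 and 0.691 in the same order, with Tagln at 0 in all 3. Among 5 endothelial markers Pecam1 was at 1.97, 9.72 and 0.343, while Cdh5 and Kdr were at 0 in both reporter libraries. Their summed level was 2.19 in GIP-GFP, 11.0 in Ngn3-TOMATO cells and 0.640 in Ngn3-negative cells. It ran in the same order as Vim, and its part in the Vim levels was not tested.

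The leukocyte markers ran in another order than Vim. Ptprc, the gene of CD45, was at 6.55 in GIP-GFP, 3.70 in Ngn3-TOMATO cells and 3.74 in Ngn3-negative cells. The 7 lymphocyte markers, all above 1 in each library, summed to 379 in GIP-GFP cells, 63.4 in Ngn3-TOMATO cells and 157.6 in Ngn3-negative cells, led by the granule protease gene Gzma at 243.7, 36.2 and 94.8. The 8 myeloid markers, 5 of them at 1 or more in each library, summed to 36.5, 19.5 and 21.7. Tyrobp was at 13.8, 3.31 and 3.19 and Lyz2 at 10.6, 4.46 and 2.08, both highest in GIP-GFP. Cd68 (2.91, 4.57 and 5.19) and Itgam (1.97, 3.06 and 6.91) were highest in Ngn3-negative. The macrophage marker Adgre1 was at 0 in both reporter libraries. The 4 matched B and plasma cell markers of 5 summed to 3.65, 4.52 and 6.48. The part of leukocytes in the Vim levels was not tested.

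Neuron and glia markers were read because these cells hold Th, neurofilaments and peripherin. Of 10 neuron markers, which include Prph, 4 reached 1 scaled FPKM in GIP-GFP cells, 7 in Ngn3-TOMATO cells and 3 in Ngn3-negative cells, with sums of 131.4, 285.0 and 6.01. Most of these sums came from Snap25 (84.8, 218.5 and 3.17), which enteroendocrine cells also use for exocytosis, and from the receptor gene Ret (29.1, 57.0 and 1.36). Vip, a neuropeptide gene of enteric neurons, was at 0 in GIP-GFP and in Ngn3-negative. Rbfox3, a neuronal splicing factor gene, was at 15.2 in GIP-GFP, 2.59 in Ngn3-TOMATO cells and 0.0267 in Ngn3-negative cells, the same order as Th and Nefl. Of 7 glia markers 3 reached 1 in each library, with sums of 130.5, 116.6 and 135.5 that came mostly from Erbb3 (111.0, 110.6 and 132.8). Sox10 was at 0 in all 3 libraries. The part of neurons and glia in the levels of Th and the neurofilament genes was not tested.

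**Figure D3:**
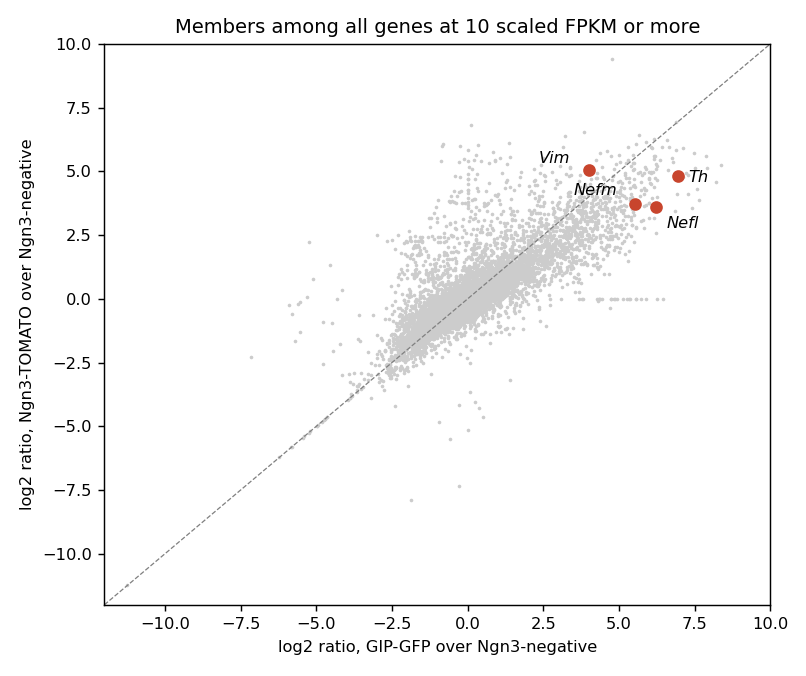
The log2 ratio of Ngn3-TOMATO over Ngn3-negative (y axis) against that of GIP-GFP over Ngn3-negative (x axis) for the 10413 genes that reached 10 scaled FPKM somewhere (grey), with 4 members in red. Th, Nefl and Nefm lie below the dashed line of equal ratios and Vim above it. Both axes share the Ngn3-negative library.

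The genes whose pattern was most like each member were sought among these 10413 genes by distance in the 2 log2 ratios to Ngn3-negative, over only 3 libraries, so many genes lie close by. The nearest to Th was Pax6, a transcription factor gene, at 504.5 scaled FPKM in GIP-GFP cells, 114.3 in Ngn3-TOMATO cells and 3.11 in Ngn3-negative cells, a distance of 0.00739 log2 units, followed by Hmgn3 (0.0950) and the calcium-binding protein gene Scgn (0.107). The nearest to Nefl was the prostaglandin receptor gene Ptger3, at 108.3, 16.2 and 0.495 and a distance of 0.103, followed by Mrln (0.119) and 4933407L21Rik (0.268). The nearest to Nefm were Rcn1 (0.167), Pla2g2d (0.170) and A530020G20Rik (0.219), and the nearest to Vim were Atf5 (0.277), B3gnt2 (0.338) and Dnaja4 (0.363). A530020G20Rik, Atf5 and B3gnt2 were listed at 0 in Ngn3-negative, so their ratios and distances rest on the added 1. Vim was at 8.01 there. Whether these zeros are failed estimates was not tested.

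The other filament genes place the members in the cytoskeleton of these cells. Keratins made up most of the 17 cytoplasmic filament genes listed, with 86.2% of their summed scaled FPKM in GIP-GFP cells, 95.5% in Ngn3-TOMATO cells and 99.8% in Ngn3-negative cells. Nefl and Nefm together held 8.17% in GIP-GFP, 0.571% in Ngn3-TOMATO cells and 0.0299% in Ngn3-negative cells. Vim held 5.64%, 3.82% and 0.150% in the same order. Set against Krt8, the main partner chain of simple epithelia, Vim stood at 0.210 times its level in GIP-GFP (0.198 to 0.222) and 0.214 times in Ngn3-TOMATO (0.209 to 0.220), but 0.00630 times in Ngn3-negative (0.00539 to 0.00736). The intervals of the ratio overlapped between the reporter libraries, although those of the level of Vim did not.

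**Figure D4:**
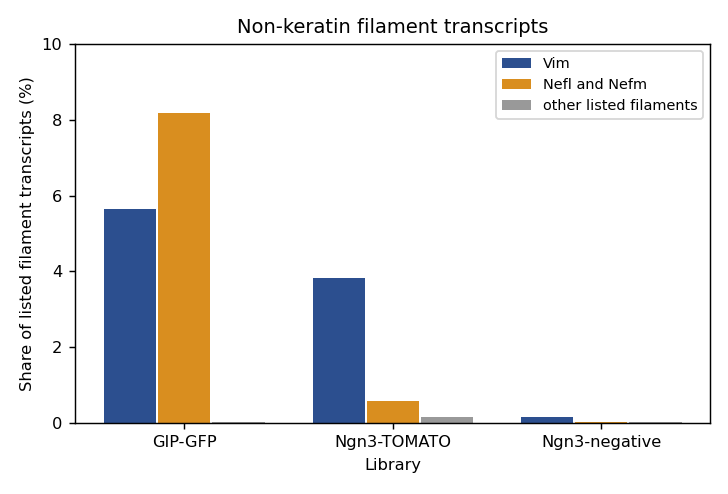
Share of the summed scaled FPKM of 17 listed cytoplasmic filament genes (y axis, percent, from 0) held by Vim, by Nefl with Nefm and by the other non-keratin genes in each library. The rest is keratin. Nefl with Nefm hold 8.17% in GIP-GFP and 0.571% in Ngn3-TOMATO.

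Of 9 other filament and lamin genes that could be compared with Ngn3-negative, none was at least 2-fold higher and 4 were at least 2-fold lower in GIP-GFP. In Ngn3-TOMATO 3 were higher and 1 lower. Among all genes compared, 21.0% were higher and 13.8% lower in GIP-GFP, and 19.1% higher and 9.96% lower in Ngn3-TOMATO. The list medians were -0.87 and 0.19 on the log2 scale, beside 0.07 and 0.03 for all genes compared, and the second came to -0.05 under equal totals. Krt19, the most abundant of the list over the 3 libraries together though below Krt8 in GIP-GFP (693.1), was at 671.6 scaled FPKM in GIP-GFP cells, 2113 in Ngn3-TOMATO cells and 2254 in Ngn3-negative cells. Krt20 was at 278.2, 1437 and 1259, Krt23 at 3.61, 45.1 and 17.6, and Krt7 at 147.6, 1148 and 125.4. Krt19, Krt20 and Krt23 were lowest in GIP-GFP, where Nefl and Nefm were highest, and Krt7 was near its Ngn3-negative level there. Among 8 linker and turnover genes, 2 were at least 2-fold higher and 4 lower in GIP-GFP than in Ngn3-negative, beside 21.0% and 13.8% of all genes. Plec, the gene of the filament linker plectin, was at 36.5, 59.8 and 93.9.

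Microtubule and growth cone genes of neurons were higher in part. Of 11 that could be compared, 6 were at least 2-fold higher and 1 lower in GIP-GFP than in Ngn3-negative, beside 21.0% and 13.8% of all genes. In Ngn3-TOMATO 9 were higher and 1 lower, beside 19.1% and 9.96% of all genes. The medians were 1.57 and 2.25, where those of all genes compared were 0.07 and 0.03. Map1b and Map2, genes of proteins that bind microtubules, were at 56.9 and 55.4 scaled FPKM in GIP-GFP cells, 32.0 and 18.3 in Ngn3-TOMATO, and 0.610 and 1.14 in Ngn3-negative. The motor gene Kif5c was at 15.2, 2.83 and 0.0721. These 3 genes ran in the order of Th, Nefl and Nefm. Uchl1, a ubiquitin hydrolase gene of neurons and endocrine cells, was at 6.98 and 10.8 in the reporter libraries and listed at 0 in Ngn3-negative. The tubulin genes Tubb2a (15.8, 59.1 and 14.0) and Tubb2b (7.85, 40.5 and 7.73) were highest in Ngn3-TOMATO.

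**Figure D5:**
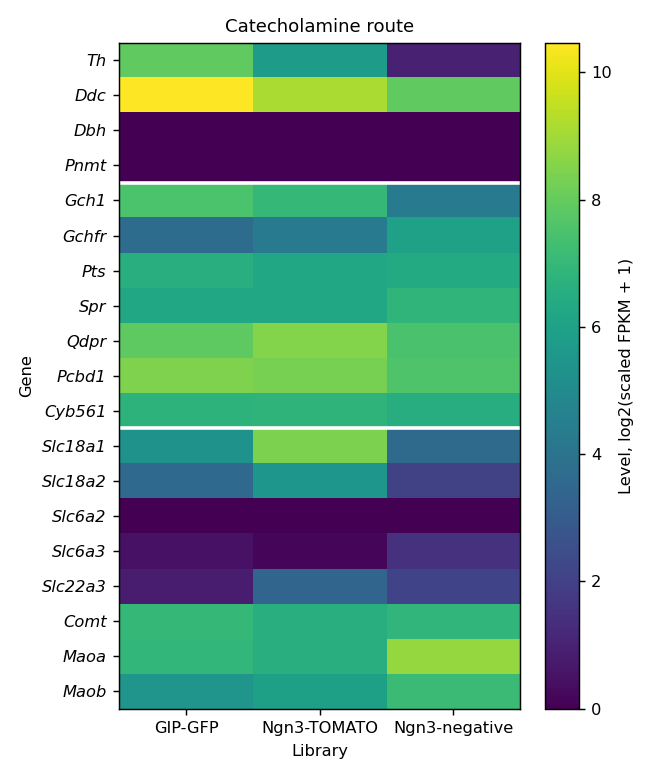
Level of 19 genes of the catecholamine route (rows) in the 3 libraries (columns) as log2 of scaled FPKM plus 1, with synthesis enzymes on top, cofactor genes in the middle and storage, uptake and breakdown genes below. Dbh and Pnmt are dark throughout, and Slc18a1 is brightest in Ngn3-TOMATO.

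Around Th, transcripts of Ddc and of genes for the cofactor of tyrosine hydroxylase were found in all libraries. Ddc, the decarboxylase that also makes serotonin, was at 1413 scaled FPKM in GIP-GFP cells, 555.6 in Ngn3-TOMATO cells and 242.9 in Ngn3-negative cells. Th stood at 0.168 times the level of Ddc in GIP-GFP (0.160 to 0.176), 0.0955 times in Ngn3-TOMATO (0.0902 to 0.101) and 0.00385 times in Ngn3-negative (0.00243 to 0.00610). Ddc exceeded Th in each library, most of all in Ngn3-negative.

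Gch1, which makes the precursor of the tetrahydrobiopterin cofactor that tyrosine hydroxylase needs, was at 179.1 in GIP-GFP, 125.8 in Ngn3-TOMATO cells and 19.2 in Ngn3-negative cells. Gchfr, whose protein mediates feedback inhibition of that enzyme, ran the other way, at 12.2, 18.2 and 63.3. Of 8 synthesis and cofactor genes besides Th that could be compared with Ngn3-negative, 2 were at least 2-fold higher and 1 lower in GIP-GFP. All genes gave 21.0% and 13.8% there. In Ngn3-TOMATO 3 were higher and 1 lower, beside 19.1% and 9.96% of all genes. The medians were 0.33 and 0.51, where those of all genes compared were 0.07 and 0.03. Under equal totals 1 gene of the list was higher in Ngn3-TOMATO. Pnmt, which turns noradrenaline into adrenaline, was listed at 0 in all 3 libraries and is named after its values were seen.

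Both vesicular transporter genes were lower in GIP-GFP than in Ngn3-TOMATO, the reverse of Th. Slc18a1, a vesicular monoamine transporter gene, was at 39.7 scaled FPKM in GIP-GFP cells, 333.2 in Ngn3-TOMATO cells and 11.2 in Ngn3-negative cells. Slc18a2, the other transporter gene of this kind, was at 10.9, 44.8 and 3.21. Slc18a2 stood at 0.0459 times the level of Th in GIP-GFP (0.0394 to 0.0535), 0.845 times in Ngn3-TOMATO (0.786 to 0.907) and 3.44 times in Ngn3-negative (2.10 to 5.62).

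Of 7 storage, uptake and breakdown genes that could be compared with Ngn3-negative, 2 were at least 2-fold higher and 3 lower in GIP-GFP. All genes gave 21.0% and 13.8% there. In Ngn3-TOMATO 3 were higher and 3 lower, beside 19.1% and 9.96% of all genes. The medians were -0.97 and -0.33, beside 0.07 and 0.03 for all genes compared. Maoa, an oxidase gene that degrades monoamines and the most abundant of the list, was at 121.3, 95.3 and 441.7 in the same order of libraries. It was lower in both reporter libraries than in Ngn3-negative.

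Transcription factors known from catecholamine cells were split. Isl1 was at 775.5 scaled FPKM in GIP-GFP cells, 148.3 in Ngn3-TOMATO cells and 3.25 in Ngn3-negative cells, Insm1 at 547.8, 243.5 and 6.85, and Nr4a2, which acts on Th in dopamine neurons, at 229.3, 65.6 and 7.48. These ran in the order of Th, whereas Lmx1a was at 2.65, 136.2 and 2.16 and so was high in Ngn3-TOMATO alone. Among the 7 enteroendocrine markers, 4 were also at least 2-fold higher in GIP-GFP than in Ngn3-TOMATO and 1 lower, beside 8.03% and 8.70% of all genes. Whether the order of these factors is particular to catecholamine cells was not tested. Of 12 listed factors 4 could be compared between GIP-GFP and Ngn3-negative, with 3 at least 2-fold higher, beside 21.0% of all genes. Between Ngn3-TOMATO and Ngn3-negative 5 could be compared, with 4 higher, beside 19.1% of all genes. Phox2a and Tfap2b were listed at 0 in all 3 libraries and Hand2 in both reporter libraries, and these are named after their values were seen.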

How the data were processed

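Poly(A) RNA of each sort was pooled before a TruSeq library was made and sequenced on a Genome Analyzer II, per the labels' protocols. FastQC, TopHat 1.5.0 and Cufflinks and the build mm10 are named in the submitters' processing notes, and no version of Cufflinks is named there. The authors' tables hold, per the file headers, for each of 59120 UCSC transcripts its length, its coverage, its FPKM with a lower and an upper limit, and a status. Summed, the deposited FPKM came to 1.02e+10 for GIP-GFP, 1.07e+10 for Ngn3-TOMATO and 1.04e+10 for Ngn3-negative, so the library term is not the usual one, and no source used here gives it.

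Gene names are absent from the files. Each transcript was compared, strand ignored, with GENCODE M21, of the same genome sequence, and matched by ends within 50 bases or by an overlap and length ratio of at least 0.5, and 51005 received a symbol. FPKM of transcripts of 200 bases or more, without mitochondrial ones, were summed per gene. A gene with a transcript flagged as holding too much data was treated as missing in that library. The sums were divided by 8131, which makes the mean total 1000000. Genes at 1 scaled FPKM in at least 1 of 2 libraries were compared as log2 ratios with a pseudocount of 1. With 1 library a group there is no test and no p-value. Intervals take the deposited limits as 2 standard errors and cover counting error within these libraries only. Fragments were estimated as the squared ratio of FPKM to its standard error. The fragments a level would give come from genes with 1 transcript within 10% of the length. Members, lists and motifs were chosen with earlier results of these data known. Genes beyond the members were named where they were at least 4-fold apart between 2 libraries and at 10 scaled FPKM or more, or were the most abundant of their list, unless stated. Gip, Neurog3 and Ptprc were named as checks of the sorts, markers where they were at 0, and Krt8 and Nt5c2 as comparators, the last 2 outside this rule. Vwf, Lyz2, Cd68, Itgam, Elavl3, Elavl4 and Chat were also named outside it, after their values were seen. Python 3.11.15, pandas 2.3.3, numpy 2.4.6 and matplotlib 3.10.9 were used. Alternatives varied the pseudocount, filter, scaling, transcript length, transcript choice and matching.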

Additional observations from a re-analysis of the deposited data

How the results depend on the processing

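The 16 member ratios kept their sign under each setting tried in which they had a value. The counts of members at least 2-fold higher stayed within 1.5 times. With a pseudocount of 5, genes at least 2-fold higher numbered 1773 for GIP-GFP over Ngn3-negative, 1483 for Ngn3-TOMATO over Ngn3-negative and 595 for GIP-GFP over Ngn3-TOMATO, against 2815, 2556 and 1098 with 1. Equal totals moved the median log2 ratio of all genes by -0.20 for GIP-GFP and -0.23 for Ngn3-TOMATO over Ngn3-negative, and equal totals without the 50 most abundant genes moved them by 0.12 and 0.14. Median ratio scaling moved the Ngn3-TOMATO median by 0.12. Of the genes past 2-fold in Ngn3-TOMATO over Ngn3-negative, 65.7% were higher, against 53.1% under equal totals. The log2 ratio of GIP-GFP to Ngn3-negative ranged from 5.35 to 7.84 for Th, 4.45 to 7.46 for Nefl, 4.04 to 6.37 for Nefm and 3.53 to 4.16 for Vim. The pseudocount set both ends for each of these genes. The range was wider for Th, Nefl and Nefm, whose Ngn3-negative levels are near 1, than for Vim, at 8.01 there. Prph passed 2-fold in Ngn3-TOMATO over Ngn3-negative (log2 1.03) with median ratio scaling, with equal totals without the most abundant genes and with transcripts of 500 bases or more. It had no value with a filter of 5 or with the most abundant transcript alone. Nefm had no value when matches had to share a transcript end. Treating failed estimates as missing was added after the data were seen. No paired analysis was possible because each group has 1 library.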

Other observations

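The deposited limits hold more of the depth than the FPKM alone. Among genes with 1 transcript of at least 1000 bases and under 60 fragments, the squared ratio of FPKM to its standard error was whole within 0.1 for 94.9% in GIP-GFP, 94.2% in Ngn3-TOMATO cells and 95.1% in Ngn3-negative cells. For the members with 1 transcript it gave about 1283, 536 and 13 fragments for Nefl, 1945, 1390 and 41 for Nefm and 1561, 8002 and 167 for Vim in these libraries. The Ngn3-negative levels of Nefl, Nefm and Th thus rest on the fewest fragments among the members listed above 0, apart from Prph.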
